A study of Mus musculus with 8 samples.

Results

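Cytochrome P450 enzymes of families 1 to 3 are heme proteins of the endoplasmic reticulum that add oxygen to drugs, steroids, fatty acids and environmental chemicals. They take electrons from the P450 reductase Por and, for some reactions, from cytochrome b5. Many mouse members lie in tandem gene clusters, are made mainly in liver, and differ between males and females, and in the kidney several are made in the proximal tubule, where androgens are known to raise some of them. Enzymes of the Cyp2c and Cyp2j subfamilies turn arachidonic acid into epoxides, lipid signals that act on vessels and on tubular sodium transport.

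The members were all non-control probes whose array gene name starts with Cyp1, Cyp2 or Cyp3 followed directly by a letter. This gave 81 probes for 61 genes, out of 56601 non-control probes in all. RNA came from whole kidney of 8 male mice aged 20 weeks on the C57BLKS/J Iar background, 2 mice in each of 4 groups. The mimic mice were db/db mice given miR-181b-5p mimic on PEI nanoparticles, PEI being polyethylenimine, the control-miRNA mice were db/db mice given a control miRNA on the same particles, and the untreated db/db mice have no treatment in their labels. All 3 of these groups carried the Leprdb mutation of the leptin receptor on both chromosomes, the strain label being C57BLKS/J Iar -+Leprdb/+Leprdb, and such mice become obese and diabetic. Normal mice had the strain label C57BLKS/J Iar -m+/m+, where m stands for misty, a coat-colour mutation kept near the leptin receptor gene in this stock. A miRNA mimic is a man-made RNA duplex that does the work of the mature miRNA once inside a cell. Dose, route and schedule are not given here.

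Levels below are log2 intensities relative to the 75th percentile of the same array, so that 1 unit is a doubling, and a level of 1 probe cannot be set against that of another. A probe was tested where both arrays of at least 1 group called it well above background, and a gene was represented by its brightest probe. By this filter 50 probes of 39 member genes were tested among 22368 genes. Of the 39, 33 were well above background on all 8 arrays and 6 on only some. The other 22 genes were not tested, and 18 of them were well above background on no array. The 22 included 7 of the 8 Cyp3a genes, among them Cyp3a11, the main drug-metabolising Cyp3a enzyme of mouse liver, together with Cyp1a2, 4 of the 5 Cyp2b genes and 7 of the 16 Cyp2c genes. Cyp3a11 was well above background on 1 array, Cyp3a13 on 2, and Cyp3a25 and Cyp1a2 on none.

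All 10 Cyp2d genes and all 6 Cyp2j genes were measured, and the sequences that bear on these and on Cyp2c are shown first. The Cyp2d genes of the array lie within 420 kb of mouse chromosome 15 (mm9 chr15:82201687-82621829) and the clustered Cyp2c genes within 1120 kb of chromosome 19 (mm9 chr19:39110063-40228028). RefSeq promoter sequences (GRCm38.p6, 250 bases before each start) were found for 51 of the 61 genes. None was found for Cyp2d12, Cyp2d13, Cyp2d22, Cyp2d34 and Cyp2d37-ps. Because neighbours in the Cyp2d cluster differed in response, the stretch around a shared motif is printed for 5 Cyp2d promoters. Beside them stand 4 Cyp2c promoters that also hold the motif, 30 bases each. The 4 genes were higher in untreated db/db than in normal mice, without passing the test. Cyp2c37, Cyp2c50, Cyp2c65 and Cyp2c70 hold the motif too and are not printed. Of these only Cyp2c37 was tested, and it was dim, with mean levels of -4.71 in untreated db/db and -4.06 in normal mice. Capitals mark CAAAGNNCA, a core of the sites bound by HNF4A, a factor of liver and proximal tubule.
Cyp2d10: gacacagaggaCAAAGGGCAaccctggcac
Cyp2d26: aaggcagagaaCAAAGTGCAgccttcccct
Cyp2d40: ggggcagaggaCAAAGGGCAacctggacac
Cyp2d9: gacacagaggaCAAAGGGCAaccctggcac
Cyp2d11: cacacagagaaCAAAGGGCAaccctggcac
Cyp2c40: tatcattgagaCAAAGTCCAtttggaagag
Cyp2c67: tatcattgagaCAAAGTCCAtttggaagca
Cyp2c68: tatcattgaaaCAAAGTCCAattggaagag
Cyp2c69: tatcattgagaCAAAGTCCAtttggaagag
The Cyp2d10 stretch is chr15:82407229-82407258 on the minus strand and the Cyp2d9 stretch is chr15:82452316-82452345 on the plus strand. The Cyp2d26 stretch is chr15:82794285-82794314, the Cyp2d40 stretch chr15:82764217-82764246 and the Cyp2d11 stretch chr15:82394069-82394098, all on the minus strand. The Cyp2c stretches, all on the minus strand, are chr19:39812841-39812870 for Cyp2c40, chr19:39649149-39649178 for Cyp2c67, chr19:39741160-39741189 for Cyp2c68 and chr19:39886826-39886855 for Cyp2c69. The motif, searched on both strands, was in 22 of the 51 member promoters, or 43.1%, against 5.47% of 27025 mouse promoters. Cyp2d9 and Cyp2d10, whose printed stretches are the same, shared 252 of 300 promoter bases, and Cyp2c68 and Cyp2c69 shared 277. A match is a string of letters and not a measured binding site.

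In the mean of the 3 db/db groups the kidney had higher levels of 6 Cyp2d genes and lower levels of Cyp2e1, Cyp2j13 and Cyp2a4 than in normal mice. In that mean 4.34% of all genes tested were called higher and 7.24% lower. In untreated db/db mice 7 of the 39 member genes passed the test against normal mice, 6 higher and 1 lower, or 17.9% of the members, where 3.5% of all genes tested were called, 1.24% higher and 2.26% lower. The test was limma's moderated test with Benjamini-Hochberg adjustment over all 22368 genes, at an adjusted p under 0.05, with n = 2 mice a group. The 6 higher genes were Cyp2d10, Cyp2d13, Cyp2d22, Cyp2d26, Cyp2d37-ps and Cyp2s1, and the lower gene was Cyp2e1. Members also moved far: 41% of them, and 39.4% of the 33 well above background on all arrays, differed by more than 2-fold in either direction, against 7.43% of all genes, while their median log2 difference was -0.229, against -0.0424 for all genes. Without 1 array the count was 0 or 1 when that array came from the normal, untreated db/db or control-miRNA mice, where 0.0849% to 0.93% of all genes were called. It was 21 without either mimic array, where 14.9% of all genes were called, since these arrays enter this comparison only through the shared estimate of spread.

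**Figure D1:**
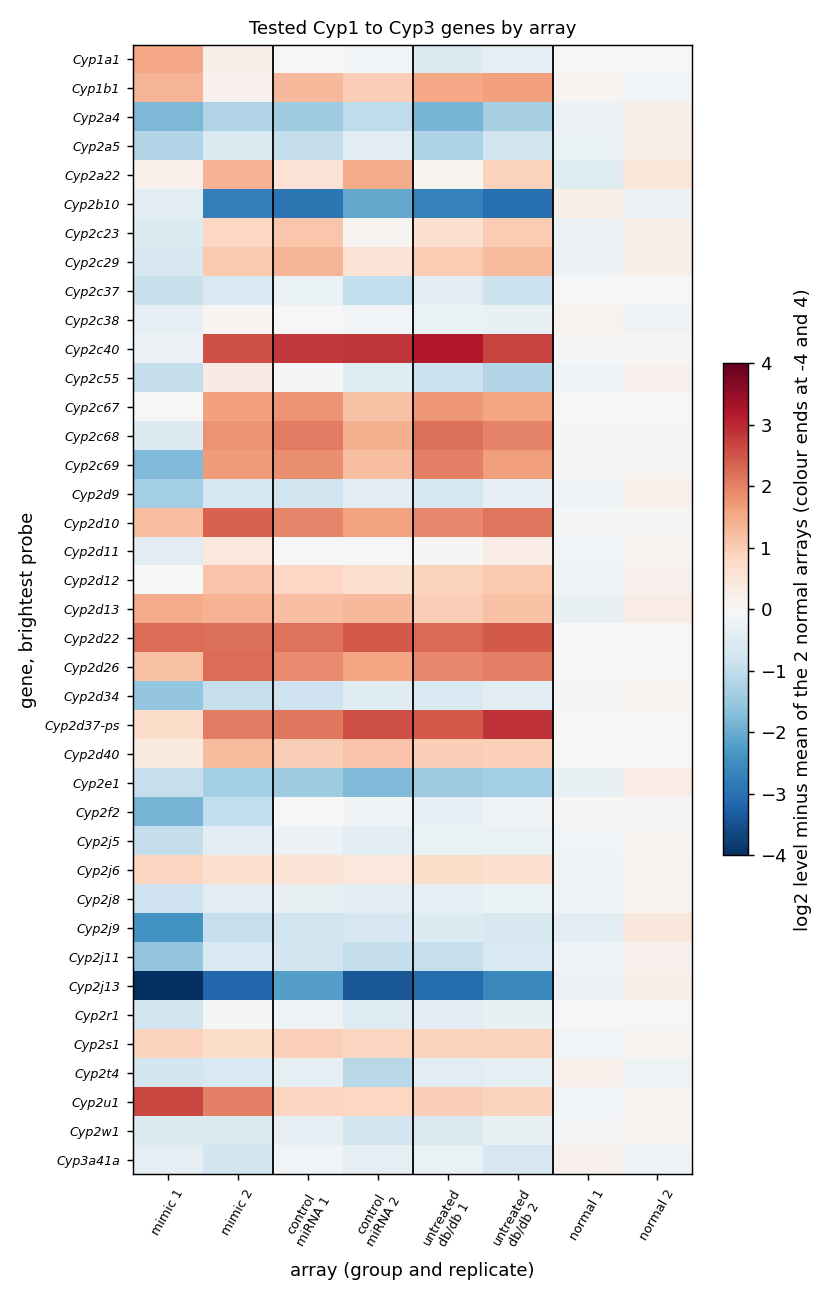
Log2 level of each of the 39 tested Cyp1 to Cyp3 genes on each of the 8 arrays, minus the mean of the 2 normal arrays for that gene, as colour (red higher, blue lower). Cyp2d22, Cyp2d10, Cyp2c67 and Cyp2c68 were red and Cyp2j13 blue on most db/db arrays, and the column of mimic replicate 1 differed from that of mimic replicate 2.

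Control-miRNA mice had 4 members past the test against normal mice, 3 higher and 1 lower, where 1.87% of all genes were called, 0.675% higher and 1.19% lower. These were Cyp2d13, Cyp2d22 and Cyp2s1, which were higher, and Cyp2e1, which was lower. In mimic mice 12 members passed, 7 higher and 5 lower, where 8.98% of all genes were called, 3.04% higher and 5.93% lower. The mean of the 3 db/db groups, taken with equal weight, also differed from normal in 12 members, 9 higher and 3 lower, where 11.6% of all genes were called, 4.34% higher and 7.24% lower. These comparisons share the same 2 normal arrays, so they are not separate evidence. Over the comparisons with normal mice 14 member genes passed at least once and 25 never did, and 4 genes (Cyp2d13, Cyp2d22, Cyp2e1 and Cyp2s1) passed in all 3 db/db groups. The matching counts over all genes were not computed, so these counts only list the members. Calls of members and of all genes both moved when 1 array was left out. For the mean, 1 member passed without normal replicate 1, where 0.957% of all genes did, and 29 passed without mimic replicate 2, where 26.7% did. For mimic mice, 3 members passed without any one of the normal or untreated db/db arrays, where 1.44% to 3.38% of all genes did, and 20 passed without mimic replicate 2, where 28.7% did. For control-miRNA mice, no member passed without normal replicate 1, where 0.0984% of all genes did, and 19 passed without either mimic array, where 11.4% did.

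**Figure D2:**
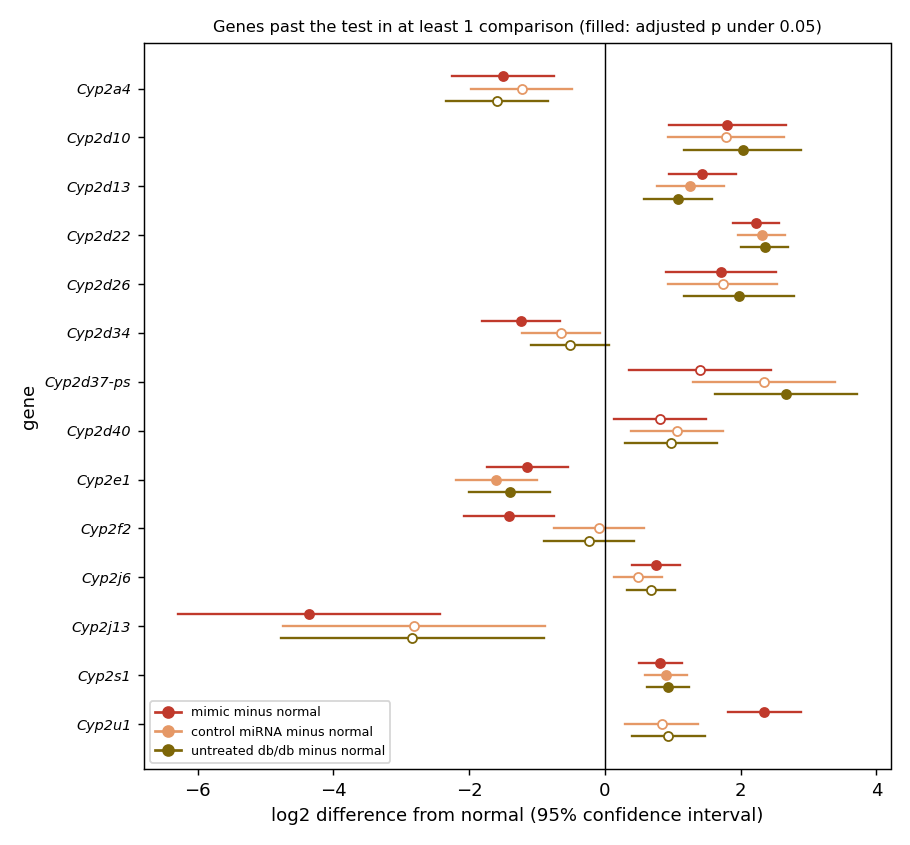
Log2 difference from normal mice (points) with 95% confidence interval (lines) for the 14 genes past the test in at least 1 comparison, in mimic, control-miRNA and untreated db/db mice (n = 2 each, against the same 2 normal mice). Filled points had an adjusted p under 0.05, and Cyp2d22, Cyp2d13, Cyp2s1 and Cyp2e1 were filled in all 3.

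Cyp2d enzymes hydroxylate many basic drugs in their human form, and in the mouse the subfamily has grown to a cluster of close copies. Probe sequences were compared only with each other, and whether a Cyp2d, Cyp2a or Cyp2c probe also binds the transcripts of neighbouring copies was not tested. Of the 10 Cyp2d genes, 6 were higher and none lower in the mean of the db/db groups, where 4.34% of all genes were called higher and 7.24% lower. Their median log2 difference was 1.10, against a median of -0.0552 for all genes. Cyp2d22 is the mouse gene usually paired with human CYP2D6. Its log2 levels were -1.36 and -1.40 in mimic mice, -1.45 and -1.15 in control-miRNA mice, -1.35 and -1.17 in untreated db/db mice, and -3.60 and -3.62 in normal mice. All 6 db/db kidneys thus lay above both normal kidneys with a wide gap. The log2 difference was 2.23 in mimic mice (SE 0.141, adjusted p 0.00383), 2.31 in control-miRNA mice (adjusted p 0.00413) and 2.35 in untreated db/db mice (adjusted p 0.00365), all from limma.

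Cyp2d10 and Cyp2d26 lie in the same cluster and metabolise drugs and other foreign compounds. Cyp2d10 log2 levels were 4.32 and 5.45 in mimic mice, 5.03 and 4.70 in control-miRNA mice, 5.01 and 5.22 in untreated db/db mice, and 3.04 and 3.12 in normal mice. Cyp2d26 log2 levels were 6.41 and 7.48 in mimic mice, 7.13 and 6.81 in control-miRNA mice, 7.16 and 7.27 in untreated db/db mice, and 5.24 and 5.23 in normal mice. By the brightest probe of both genes every db/db kidney was above the normal kidneys, and mimic replicate 1 was the lowest of the db/db kidneys. In untreated db/db mice the limma difference was 2.03 for Cyp2d10 (SE 0.354, adjusted p 0.0416) and 1.98 for Cyp2d26 (SE 0.333, adjusted p 0.0392). A dimmer second Cyp2d26 probe differed by 0.70 in the same comparison. On that probe mimic replicate 1 read 3.52, below the 3.60 and 3.86 of the normal mice. In control-miRNA mice neither gene passed, at log2 differences of 1.79 and 1.73.

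Cyp2d37-ps is annotated as a pseudogene, and its probe read log2 levels of -3.47 and -2.15 in mimic mice, -2.10 and -1.62 in control-miRNA mice, -1.76 and -1.32 in untreated db/db mice, and -4.21 and -4.20 in normal mice. Its difference was 2.66 in untreated db/db mice (SE 0.43, adjusted p 0.0346), and that of 1.40 in mimic mice did not pass. Cyp2d13 was higher by 1.08 in untreated db/db mice (adjusted p 0.0490) with its brighter probe, while its second probe differed by -0.199, so the gene's probes disagree. Cyp2d40 passed only in the mean of the db/db groups, at 0.95 (adjusted p 0.0480).

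The other Cyp2d genes did not pass in the mean of the db/db groups. Cyp2d12 had a difference of 0.981 in untreated db/db mice (adjusted p 0.154). Cyp2d11 log2 levels were 5.54 and 6.42 in mimic mice, 5.99 and 5.98 in control-miRNA mice, 6.04 and 6.29 in untreated db/db mice, and 5.88 and 6.12 in normal mice, so the groups overlapped. Cyp2d9, a steroid 16-alpha-hydroxylase that is male-specific in mouse liver, differed by -0.51 in untreated db/db mice (95% interval -1.20 to 0.178) and by -1.03 in mimic mice (adjusted p 0.0739). Cyp2d34 fell by 1.23 on the log2 scale in mimic mice relative to normal mice (SE 0.238, adjusted p 0.0333), and its difference of -0.80 in the mean of the db/db groups had an adjusted p of 0.0501. Cyp2d9, Cyp2d10 and Cyp2d11, whose printed promoter stretches are alike, had log2 differences of -0.51, 2.03 and 0.163 in untreated db/db mice.

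**Figure D3:**
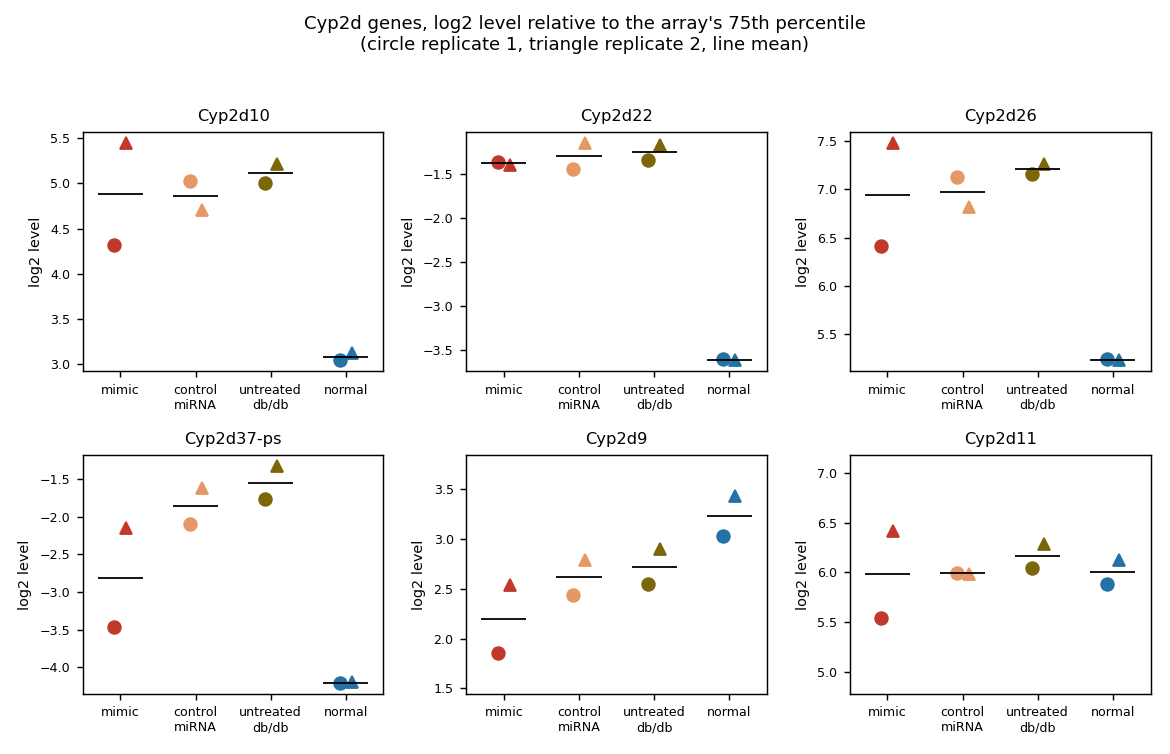
Log2 level of 6 Cyp2d genes on each array by group, relative to the array's 75th percentile (circle replicate 1, triangle replicate 2, line mean of the 2). The db/db groups lay above normal mice for Cyp2d10, Cyp2d22, Cyp2d26 and Cyp2d37-ps, below for Cyp2d9, and overlapped normal mice for Cyp2d11.

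Cyp2e1, the ethanol- and ketone-oxidising P450 that testosterone is known to raise in mouse kidney, was lower in every db/db group. Its log2 levels were 6.81 and 6.39 in mimic mice, 6.32 and 5.98 in control-miRNA mice, 6.30 and 6.39 in untreated db/db mice, and 7.46 and 8.03 in normal mice. The lowest normal kidney exceeded the highest db/db kidney. The gene fell by 1.40 on the log2 scale in untreated db/db mice (SE 0.246, adjusted p 0.0419), by 1.60 in control-miRNA mice (adjusted p 0.0400) and by 1.15 in mimic mice (adjusted p 0.0434). A second Cyp2e1 probe differed by -1.38 in untreated db/db mice.

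Cyp2a4, a steroid 15-alpha-hydroxylase, had log2 levels of 5.38 and 5.96 in mimic mice, 5.74 and 6.15 in control-miRNA mice, 5.30 and 5.86 in untreated db/db mice, and 6.93 and 7.41 in normal mice. All db/db kidneys were below both normal kidneys. The difference was -1.59 in untreated db/db mice (adjusted p 0.0512), and it passed in mimic mice at -1.50 (adjusted p 0.0388) and in the mean at -1.44 (adjusted p 0.0233). Its close copy Cyp2a5, the coumarin 7-hydroxylase, differed by -0.99 in untreated db/db mice (adjusted p 0.136). Their RefSeq promoters share 294 of 300 bases, and the array's probes for the 2 genes had no ungapped match of at least 75% over 25 bases. Such a match of probes cannot show whether either probe also binds the other gene's transcript. Cyp2a22 differed by 0.505 in untreated db/db mice and did not pass (adjusted p 0.627).

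Cyp2j enzymes epoxidise arachidonic acid, and Cyp2j5 is the best-known renal form in the mouse. Of the 6 Cyp2j genes, 1 was higher and 1 lower in the mean of the db/db groups, where 4.34% of all genes were called higher and 7.24% lower. Cyp2j13, described as a male-predominant kidney gene, had log2 levels of -0.05 and 2.36 in mimic mice, 3.32 and 2.09 in control-miRNA mice, 2.43 and 2.93 in untreated db/db mice, and 5.29 and 5.74 in normal mice. Every db/db kidney was lower than both normal kidneys, and mimic replicate 1 was the lowest. The gene fell by 3.33 on the log2 scale in the mean of the db/db groups (SE 0.651, adjusted p 0.0298) and by 4.36 in mimic mice (SE 0.797, adjusted p 0.0293), whereas the difference of -2.83 in untreated db/db mice had an adjusted p of 0.101. All 4 Cyp2j13 probes were lower in the mean, with log2 differences between -3.33 and -1.0. Without mimic replicate 1, the difference in mimic mice was -3.15, which rests on 1 mimic mouse. Leaving out either mimic array leaves the difference in untreated db/db mice as it was and changes only the shared spread.

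Cyp2j6 moved the other way, with log2 levels of 0.324 and 0.103 in mimic mice, 0.00 and -0.10 in control-miRNA mice, 0.208 and 0.09 in untreated db/db mice, and -0.66 and -0.41 in normal mice. It was higher by 0.639 in the mean (SE 0.119, adjusted p 0.0266) and by 0.748 in mimic mice (adjusted p 0.0342), and its second probe differed by 0.901 in the mean. Cyp2j5 differed by -0.429 in the mean (95% interval -0.811 to -0.0468, adjusted p 0.126). The representative Cyp2j probes lie between 5.16 and 5.74 Mb from the Lepr probe on chromosome 4 (mm9 chr4:101452666-101452725). Within 10 Mb of that probe, 18.7% of 139 genes other than Cyp2j and Lepr were called in the mean of the db/db groups, against 11.5% of 20809 genes on other chromosomes. In untreated db/db mice the shares were 4.32% and 3.51%. The db allele and the chromosome stretch that travels with it cannot be told apart here.

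**Figure D4:**
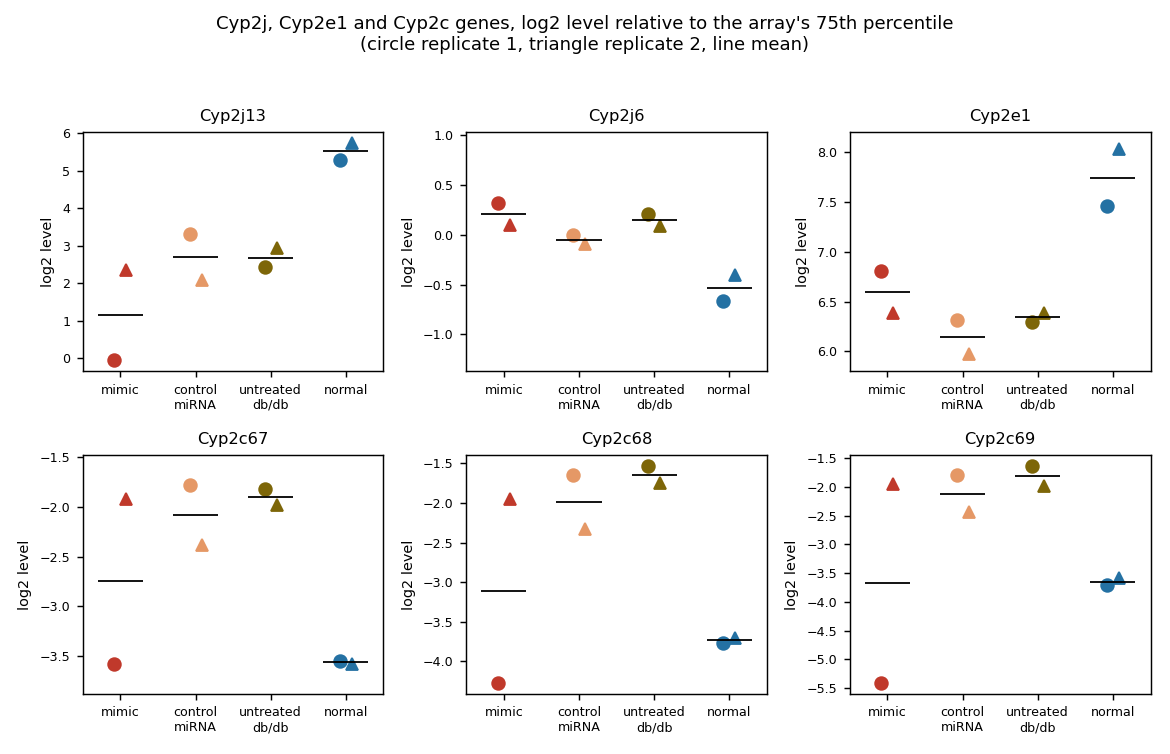
Log2 level of Cyp2j13, Cyp2j6, Cyp2e1, Cyp2c67, Cyp2c68 and Cyp2c69 on each array by group, relative to the array's 75th percentile (circle replicate 1, triangle replicate 2, line mean of the 2). Normal mice stood apart from all db/db mice for the first 3 genes, and mimic replicate 1 was at or below the level of normal mice for the 3 Cyp2c genes.

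No Cyp2c gene passed the test in any comparison, although 3 of the 9 tested, all well above background in both groups, had log2 differences of 1.67 to 2.09 between untreated db/db and normal mice. Cyp2c enzymes metabolise drugs and epoxidise fatty acids, and the mouse cluster holds many close copies. Cyp2c69 log2 levels were -5.41 and -1.94 in mimic mice, -1.80 and -2.44 in control-miRNA mice, -1.63 and -1.99 in untreated db/db mice, and -3.70 and -3.59 in normal mice. Cyp2c68 log2 levels were -4.27 and -1.95 in mimic mice, -1.64 and -2.32 in control-miRNA mice, -1.53 and -1.76 in untreated db/db mice, and -3.77 and -3.70 in normal mice. In both genes 5 of the 6 db/db kidneys lay above the normal kidneys, and mimic replicate 1 lay below them. In untreated db/db mice the differences were 1.84 for Cyp2c69 (adjusted p 0.315), 2.09 for Cyp2c68 (adjusted p 0.138) and 1.67 for Cyp2c67 (adjusted p 0.119). Leaving out either mimic array leaves these differences as they were and changes only the shared spread. Cyp2c69 was not well above background in mimic replicate 1, so its level there is only an upper bound. Without that array it was 1.70 higher in mimic than in normal mice, which rests on 1 mimic mouse.

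Cyp2c40, known for making hydroxy fatty acids from arachidonic acid, was not well above background on either normal array or on mimic replicate 1. Its level was at least 2.00-fold higher in untreated db/db mice and at least 1.85-fold higher in control-miRNA mice than in normal mice, with adjusted p of 0.0987 and 0.126 for the measured differences. It entered the test only through the control-miRNA and untreated db/db mice, where it was high, so these values are a description and no support. Cyp2c29 differed by 1.14 in untreated db/db mice (adjusted p 0.263), and Cyp2c55 by -1.01 (adjusted p 0.204). Cyp2c23, listed on the array as Cyp2c44 and the main arachidonate epoxygenase of the renal tubule, had log2 levels of 2.35 and 3.72 in mimic mice, 3.99 and 2.99 in control-miRNA mice, 3.54 and 3.89 in untreated db/db mice, and 2.65 and 3.12 in normal mice. Its difference was 0.832 in untreated db/db mice (95% interval -0.422 to 2.08, adjusted p 0.371).

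The probes of 2 Cyp2c genes are nearly the same and are printed to show this. The Cyp2c67 and Cyp2c68 probes matched at 55 of 59 aligned bases, and these 30-base stretches show in capitals the bases that differ within them.
Cyp2c67: acAcagtcccagAaattccatctatattcc
Cyp2c68: acCcagtcccagGaattccatctatattcc
The Cyp2c67 probe is annotated to mm9 chr19:39683429-39683488 and the Cyp2c68 probe to chr19:39763420-39763479, both on the minus strand. The values of these 2 genes are therefore uncertain as separate measures.

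Cyp2b10, the classic target of the receptor Nr1i3, had log2 levels of -4.82 and -7.13 in mimic mice, -7.31 and -6.42 in control-miRNA mice, -7.10 and -7.40 in untreated db/db mice, and -4.16 and -4.61 in normal mice. It was well above background on both normal arrays, on mimic replicate 1 and on no other array. Its level was at least 1.85-fold lower in untreated db/db mice than in normal mice, with an adjusted p of 0.0831 for the measured difference. It entered the test only through the normal mice, where it was high, so this too is a description and no support. Cyp1a1, the main target of the aryl hydrocarbon receptor, differed by -0.455 in untreated db/db mice (adjusted p 0.515) and by 0.879 in mimic mice (adjusted p 0.190), where its levels were -2.06 and -3.38, against -3.61 and -3.59 in normal mice. Cyp1b1, an extrahepatic oestrogen and fatty acid hydroxylase, differed by 1.59 in untreated db/db mice (adjusted p 0.0729).

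Cyp2s1, an epithelial P450, was higher in every db/db kidney. Its log2 levels were 2.73 and 2.58 in mimic mice, 2.78 and 2.69 in control-miRNA mice, 2.77 and 2.77 in untreated db/db mice, and 1.73 and 1.94 in normal mice. The difference was 0.819 in mimic mice (SE 0.128, adjusted p 0.0187), 0.90 in control-miRNA mice (adjusted p 0.0350) and 0.935 in untreated db/db mice (adjusted p 0.0252). Cyp2r1, a vitamin D 25-hydroxylase, differed by -0.347 in untreated db/db mice (adjusted p 0.435). Cyp2f2, best known from club cells of the lung, fell by 1.41 on the log2 scale in mimic mice relative to normal mice (SE 0.273, adjusted p 0.0335) and differed by -0.229 in untreated db/db mice (adjusted p 0.647).

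Cyp2u1, a fatty acid hydroxylase, had the largest member difference between mimic and normal mice in the higher direction, and its 3 tested probes did not agree. The probe that represents the gene had log2 levels of 8.45 and 7.80 in mimic mice, 6.63 and 6.60 in control-miRNA mice, 6.76 and 6.66 in untreated db/db mice, and 5.65 and 5.89 in normal mice, a difference of 2.35 between mimic and normal mice (SE 0.222, adjusted p 0.00601). The other 2 probes differed by -0.363 and -0.151 in that comparison. A stretch of 30 bases of each probe is printed here because the bright probe consists largely of a repeat, whose GT units are in capitals.
Cyp2u1 A_55_P1966734: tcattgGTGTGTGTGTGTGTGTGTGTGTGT
Cyp2u1 A_52_P421698: gactacctgttctacatcattggggacctc
Cyp2u1 A_66_P101879: cgctcgccattcctcacatgacctcggaga
The bright probe is annotated to mm9 chr3:130996343-130996402 and the second to chr3:131000768-131000827, and the last spans chr3:130997965-130998356, all on the minus strand. After the values were seen, all tested probes with 10 or more GT units in a row were collected, whatever their gene. All 48 were higher in mimic than in normal mice, by 1.85 to 3.12 on the log2 scale, and all 48 passed the test, where 8.14% of all 33639 probes did. The 26 tested probes with 10 or more AC units in a row, the opposite strand of the same repeat, were all lower, with log2 differences of -3.53 to -2.25. The Cyp2u1 value thus lies within the range of probes of other genes that share the repeat, and the 2 Cyp2u1 probes without it were not called.

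**Figure D5:**
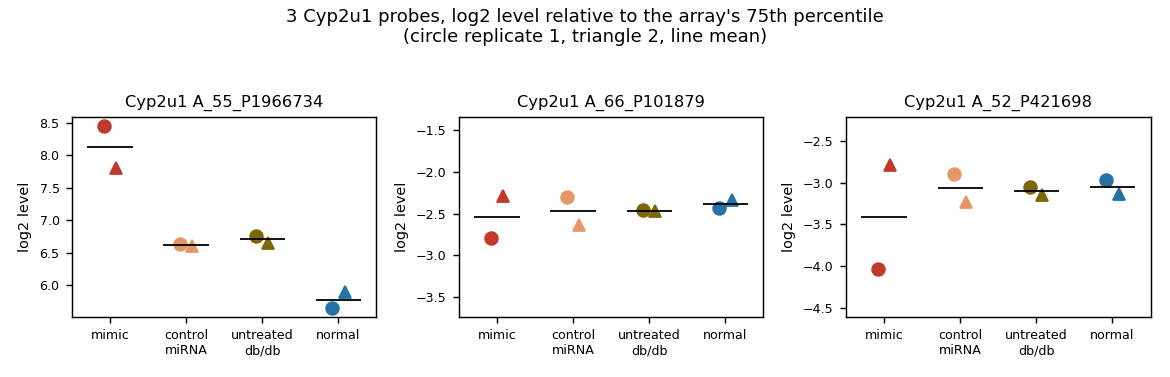
Log2 level of the 3 tested Cyp2u1 probes on each array by group, relative to the array's 75th percentile (circle replicate 1, triangle replicate 2, line mean of the 2). The probe with the GT repeat (left) was highest in mimic mice and lowest in normal mice, while the groups overlapped for the 2 probes without the repeat.

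The comparison of mimic with control-miRNA mice addresses the effect of the mimic, since both groups received nanoparticles. No member and no other gene passed limma's test, so 0% of genes were called. Before adjustment, 3 members, or 7.69% of those tested, were among the 2082 genes, or 9.31% of all genes, with a p under 0.05. The 3 members were Cyp2u1 at 1.51 (adjusted p 0.140), Cyp2f2 at -1.33 (adjusted p 0.208) and Cyp2d34 at -0.587 (adjusted p 0.529). The Cyp2u1 value is that of the GT repeat probe. All 48 tested GT repeat probes were higher in this comparison, by 1.13 to 2.2. Of the 3 Cyp2u1 probes only 1 was above 0, and the lowest was at -0.351. Cyp2f2 log2 levels were -1.80 and -0.935 in mimic mice, 0.0202 and -0.0915 in control-miRNA mice, -0.274 and -0.0904 in untreated db/db mice, and 0.0926 and 0.00 in normal mice. Both mimic kidneys were therefore below the other 6 for this gene. Without mimic replicate 2, which leaves mimic replicate 1 alone in its group, 14 members passed, where 13.8% of all genes did, and without mimic replicate 1 no member passed, where 0.505% of all genes did. Among members well above background on all arrays of both groups, the largest difference was that of Cyp2j13 at -1.54, which did not pass (adjusted p 0.601). Cyp2c40 and Cyp2c69 were not well above background in mimic replicate 1 and get no difference here. Mimic and untreated db/db mice also had no call by limma, or 0%. At an unadjusted p under 0.05 there were 5 members, or 12.8%, among 3104 genes, or 13.9% of all genes. The 5 were Cyp1a1, Cyp2d34, Cyp2d37-ps, Cyp2f2 and, by its repeat probe, Cyp2u1. Without mimic replicate 2, 18 members passed there, where 18.6% of all genes did. Control-miRNA and untreated db/db mice had no call, or 0%, and no member among 724 genes, or 3.24%, at an unadjusted p under 0.05. No member differed by 2-fold between them, and the largest differences were 0.748 for Cyp2c55, 0.518 for Cyp2a22 and -0.445 for Cyp1b1.

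The mimic mice differed from each other more than the mice of other groups did. Between them 17 of 39 members, or 43.6%, were more than 2-fold apart, against 11% of all genes, and 14 of the 17 were lower in replicate 1. The number was 1 for the control-miRNA mice and 0 for the untreated db/db and normal mice. Of the 34 members well above background on both mimic arrays, 14 were more than 2-fold apart, 12 of them lower in replicate 1. Among these 34 the widest gaps were those of Cyp2j13 at -2.41 and Cyp2c68 at -2.32, as replicate 1 minus replicate 2, and Cyp1a1 was 1.32 higher in replicate 1. The summed log2 level of 12 proximal tubule markers was 9.91 in mimic replicate 1 and between 10.5 and 10.9 on the other arrays, and that of 5 red cell markers was 7.69 and 2.77 in mimic mice. The part of these in the members' values was not tested.

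The genes that serve or control P450 enzymes were described from fixed lists. Of 10 genes for electron supply and heme, none passed in untreated db/db mice, and Por differed by 0.0300 (adjusted p 0.962). Pgrmc1, a heme-binding partner of P450 enzymes, was higher by 0.840 in mimic mice (adjusted p 0.0257), as was Hmox1, which breaks down heme, by 0.678 (adjusted p 0.0450). Of 19 measured receptors and factors, 1 passed in untreated db/db mice. This was Nr1i3, the constitutive androstane receptor, with log2 levels of -3.73 and -3.75 in mimic mice, -3.54 and -3.77 in control-miRNA mice, -3.79 and -3.60 in untreated db/db mice, and -2.57 and -2.43 in normal mice. It fell by 1.19 on the log2 scale in untreated db/db mice (SE 0.138, adjusted p 0.0173) and by 1.24 in mimic mice (adjusted p 0.00814). In the mean of the db/db groups Nr1i2, the pregnane X receptor, was higher by 0.882 (adjusted p 0.0255) and Esr1, an oestrogen receptor, was lower at -1.09 (adjusted p 0.0265), and both also passed in mimic mice. Onecut1 passed in mimic mice (adjusted p 0.0498), where it was not well above background on either array. Hnf4a differed by 0.199 in untreated db/db mice (adjusted p 0.446).

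Among 8 measured targets of the aryl hydrocarbon receptor other than the P450 genes, 2 were higher in the mean of the db/db groups. Gsta2, a glutathione transferase, had log2 levels of 3.64 and 5.66 in mimic mice, 4.67 and 5.63 in control-miRNA mice, 5.26 and 5.36 in untreated db/db mice, and 0.357 and 0.973 in normal mice. Its difference in untreated db/db mice was 4.65 (SE 0.665, adjusted p 0.0272), whereas Cyp1a1, the best-known target, did not pass. Ugt1a6b was higher by 0.874 in the mean (adjusted p 0.0404). Of 7 measured genes that use P450 epoxides, Ephx1, the microsomal epoxide hydrolase, was higher by 1.22 in the mean (adjusted p 0.0360), and Ephx3 was lower at -0.402 (adjusted p 0.0405). Ephx2, the soluble hydrolase that inactivates arachidonate epoxides, differed by -0.439 (adjusted p 0.0828).

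Most androgen-dependent kidney genes on a list of 10, none of them a member, were lower in db/db mice. Of 10 such genes, 6 were lower and none higher in untreated db/db mice, where 2.26% of all genes were called lower. In control-miRNA mice 6 were lower, where 1.19% of all genes were, and in mimic mice 8 were, where 5.93% of all genes were. The list's median log2 difference was -1.84 in untreated db/db mice. Slco1a1, an organic anion carrier, fell by 6.84 on the log2 scale in untreated db/db mice (adjusted p 0.00365), and Cyp7b1, a steroid hydroxylase outside the families described here, fell by 4.40 (adjusted p 0.000768). The summed log2 level of the list was between 7.84 and 9.0 in db/db mice and between 10.1 and 10.3 in normal mice. Markers of straight proximal tubule had summed log2 levels of 5.91 to 6.31 in db/db mice and 7.46 to 7.65 in normal mice, with 2 of 6 lower in the mean, Slc7a13 and Atp11a. Aadat and Slc22a13 were lower on every db/db array without passing, and Slc17a1 overlapped. Slc5a1 went the other way, at -0.86 to -0.19 in db/db mice and -1.15 and -1.09 in normal mice. Of 6 measured hepatocyte markers only Ttr was called higher in untreated db/db mice, and the list summed to 6.62 to 7.15 in db/db mice and 7.08 to 7.15 in normal mice. Serpina1a, at 6.59 to 7.14, made up most of this sum on every array. Fgb read 4.77 in mimic replicate 1 and -3.55 to -2.28 on the other arrays, while Alb, Tat and Cps1 were lowest in that mimic mouse. Adipocyte markers summed to 6.05 in normal replicate 1 and to 3.23 to 3.76 on the other arrays, where Fabp4 made up most of the sum. Cfd had log2 levels of 5.25 and 1.10 in normal mice and -5.10 and -5.78 in untreated db/db mice. It read 0.637 and -4.09 in control-miRNA mice and -1.71 and -3.97 in mimic mice. Adipoq, Retn, Cidec and Plin1 were also higher in normal replicate 2 than in both untreated db/db mice, while Fabp4 and Plin4 were lower. Urothelial markers were highest in normal replicate 1, at 4.14. Markers of macrophages summed to 2.88 to 3.74 in db/db mice and 4.08 to 4.20 in normal mice, with Ms4a7 and Csf1r lower in every db/db group. Csf1r made up most of this sum. In mimic replicate 1, C1qa, C1qb, Aif1, Cd68 and Adgre1 were above both normal mice, as with C1qa at 0.25, against -0.85 and -1.05. Red cell markers summed to 6.69 to 7.25 in untreated db/db mice and 3.11 to 3.80 in normal mice. Of 6 endothelial markers, Tek and Ehd3 were higher in every db/db group, by 1.10 and 1.04 in untreated db/db mice (adjusted p 0.0162 and 0.0163), and the list summed to 4.19 to 4.45 in db/db mice and 3.99 to 4.28 in normal mice. Of 6 fibroblast and mural cell markers, Rgs5 was higher in the mean, and the list summed to 3.55 to 4.39 in db/db mice and 3.40 to 4.28 in normal mice. The part of these lists in the P450 values was not tested, and in whole kidney fewer cells of a type and less RNA per cell cannot be told apart.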

How the data were processed

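RNA of 8 mouse kidneys was hybridised to 1-colour Agilent 60-base arrays. Per the file headers, Agilent Feature Extraction 12.0.3.1 made the intensity of each spot, with background and saturation calls and probe positions on mm9. The deposited series table holds a ratio per probe, which by its values is the intensity after the authors' 75th percentile scaling, set against the median of that probe on all arrays, and it was used as an alternative. Each kidney is 1 array, taken from the labels as 1 mouse, and the number of arrays limits the precision. If the file names give slide positions, the arrays were on 1 slide, with normal and untreated db/db mice in row 1 and the treated mice in row 2. Position and treatment then cannot be told apart.

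From the deposited intensity, log2 of the processed signal minus the array's 75th percentile was computed in R 4.3.3, spots of a probe were averaged, and genes were named through RefSeq (GRCm38.p6) by accession or symbol, otherwise by the array's name. Limma 3.58.1 fitted 1 mean per group over all 8 arrays (4 residual degrees of freedom), with Benjamini-Hochberg adjustment over 22368 genes. A single gene tested by exact permutation of 2 against 2 could not go below p = 0.333. "At least" folds set the brighter group against the higher of the dim probe and the dimmest probe well above background. The fit was tested on simulated data.

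Named were members past the test in any comparison, the 3 with the largest difference in each, a fixed set of members, and list genes past the test with at most 2 others per list, together with Cyp2c67, Cyp2c68, Cyp2d11, Cyp2d12 and the named marker genes, which were added after their values were seen, as were the repeat probes and the motif. The members and lists were chosen with earlier results of these data known. Alternatives were other background corrections, normalizations, filters, probe choices, array weights, a replicate block and leaving out each array.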

Additional observations from a re-analysis of the deposited data

How the results depend on the processing

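All 35 calls of member genes, each read from the gene's brightest probe, kept their direction under the 16 alternatives, and 3 stayed past the threshold under all of them (Cyp2d22 in mimic mice and in the mean of the db/db groups, and Cyp2u1 in mimic mice). Several alternatives could not turn a direction. Array weights were equal within each group, and the replicate block was balanced. An array of a group outside the comparison enters only through the spread, and the setting with every probe by itself was read from the same brightest probe. Other probes turn some of these calls: the 2 other Cyp2u1 probes were at -0.363 and -0.151 in mimic mice, and the second Cyp2d13 probe at -0.0836 in mimic and -0.199 in untreated db/db mice. Counts of members called follow as untreated db/db, control-miRNA and mimic mice, each against normal, where the counts reported were 7, 4 and 12 (3.5%, 1.87% and 8.98% of all genes). With normexp background correction the count in untreated db/db mice was 11, where 9.55% of all genes were called. Without a filter on dim probes they were 2, 1 and 7 (0.793%, 0.345% and 3.12% of all genes). With array weights they were 18, 10 and 2 (10.3%, 5.29% and 1.82% of all genes). Leaving out 1 array gave 0 to 21 in untreated db/db mice, 0 to 19 in control-miRNA mice, 3 to 20 in mimic mice and 1 to 29 for the mean of the db/db groups, and 0 to 14 for mimic against control-miRNA mice and 0 to 18 for mimic against untreated db/db mice, where a lone array was assumed to vary like the other groups. Cyp2c69 in mimic mice was 1.70 higher than in normal mice without mimic replicate 1, against -0.03 with it. It was at -1.76 without mimic replicate 2, where the array left is not well above background for this gene and gives only a bound. Each fit without a mimic array rests on 1 mimic mouse. The direction of the calls of all genes depended on the scaling: 35.5% were higher in untreated db/db mice with percentile scaling and 51.4% with quantile normalization, 36.1% and 48.6% in control-miRNA mice, 33.9% and 49.7% in mimic mice, and 37.5% and 53% in the mean. The shared replicate numbers were not taken as pairs, since same-numbered deviations correlated at -0.0193 to 0.159. With the replicate number as a block the member counts were 5, 2 and 14, and 16 for the mean (2.11%, 0.823%, 6.97% and 9.68% of all genes). Dim members, such as those of Cyp3a and Cyp2b, are limited by their signal over background.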
